A study of Mus musculus with 6 samples.

Results

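The mitochondrial genome carries its own small set of genes, which are listed in the count table under symbols that begin with mt-. All 37 such rows were taken, of 55416 rows in all: 13 protein-coding genes, 2 ribosomal RNAs and 22 transfer RNAs. The rows were picked by name and not by their values, but the set itself was chosen with earlier results of these data known. RNA was sequenced from MB21, a mouse medulloblastoma line with a Ptch mutation that both groups carry, grown unattached in serum-free medium with B27. The 3 DMSO libraries came from cells given vehicle and the 3 DS38 libraries from cells given 10 uM DS-1-38, a benzarone derivative. Treatment lasted 1 day by the series title, the sample titles and the treatment protocol, whereas the design text of the series gives a longer time. MB21 is a single line. Whether the replicates came from separate cultures is not labelled, so each p-value reflects the spread of these samples alone, possibly a technical one.

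As background, the mitochondrial genome is a circle that is read from both strands into long transcripts. These are cut into single RNAs mostly at the transfer RNAs that sit between the other genes. Its coding genes make core subunits of respiratory complexes I, III and IV and of ATP synthase, whereas all subunits of complex II and most subunits of the others are encoded in the nucleus. Its ribosomal and transfer RNAs serve the translation of the coding genes inside the organelle. The nuclear genome also holds inserted copies of mitochondrial DNA, and a read from such a stretch can match both places. In bulk RNA, fewer mitochondria per cell, less RNA per mitochondrion and a change in the cells sampled cannot be told apart.

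The DMSO libraries held 38840296 to 50014681 counts each, and the DS38 libraries, all deeper, 60434089 to 84044428. All 12 markers of granule progenitors and hedgehog medulloblastoma were expressed, with Zic1 and Sfrp1 the most abundant, and their summed level was 2823 to 2907 CPM (counts scaled to library size) in DMSO and 2775 to 2814 in DS38. Of the other cell types looked for, microglia (8 markers) reached 1.78 to 1.96 CPM in DMSO and 1.73 to 2.17 in DS38, with C1qa at 0 in every library. Endothelial markers (6) reached 0.982 to 1.33 and 1.08 to 1.20 CPM, with Kdr and Cldn5 at 0. Of the 12 granule progenitor and medulloblastoma markers, 7 were called lower in DS38 (among them Zic1, -0.10, Hhip, -0.35, and Neurod1, -0.37 on the log2 scale). A further 2 were called higher (Atoh1, 0.33, and Barhl1, 0.27), and Sfrp1 did not pass (0.02). Over all genes tested, 11.7% were called lower and 12.9% higher. The 7 astrocyte markers summed to 447 to 471 CPM in DMSO and 389 to 401 in DS38, nearly all of it Slc1a2, which was called lower (-0.31), and Slc1a3, which did not pass (-0.05). Gfap was called higher (0.32), from 4.33 to 5.40 CPM. The 7 fibroblast markers gave 72.8 to 74.3 and 70.1 to 74.2 CPM, mostly Pdgfra, which did not pass (-0.03). Of the 4 tested, 1 was called higher and 0 lower, with log2 fold changes from -0.19 to 1.16. The 7 oligodendrocyte markers gave 23.9 to 24.9 and 26.2 to 29.2 CPM, mostly Olig1, with Mag at 0. Of the 5 tested, 1 was called higher (Olig1, 0.20) and 0 lower. The summed levels of the granule progenitor, astrocyte and oligodendrocyte lists thus differed between groups without overlap, and their part in the mitochondrial values was not tested.

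Several mitochondrial genes share long stretches with nuclear copies, and this bears on which of their counts can be read as levels. The windows of each gene that also occur in another GENCODE M21 transcript were therefore counted first. In mt-Co2, mt-Atp6, mt-Co3, mt-Nd3 and mt-Nd4l, 97.6% to 99.9% of the 100-base windows were found in a copy on chromosome 1. Over all nuclear transcripts searched, the share was 60.8% in mt-Nd4, 30.8% in mt-Co1 and 3.19% in mt-Nd2, whose best match lay on chromosome 2. It was 0% in mt-Nd1, mt-Nd5, mt-Nd6, mt-Cytb, mt-Atp8 and both ribosomal RNAs. With 50-base windows it was 51.1% in mt-Co1, 8.19% in mt-Nd2, 7.61% in mt-Nd5 and 1.04% in mt-Rnr2, and 62.2% in mt-Nd4. The copies of mt-Co2 (Gm28661, 681 bases), mt-Atp6 (Gm10925, 678 bases), mt-Co3 (Gm28437, 783 bases), mt-Nd4l (Gm10222, 294 bases) and part of mt-Nd4 (Gm28439, 876 bases) differed from them at 0 bases. The copy of mt-Nd3, Gm28438, differed at 1 of 345 bases, T3C, where positions count from 1 at the first base of mt-Nd3. The stretches below begin each of the copies that can be told from its gene and show how little separates them, with the differing bases in capitals. Bases 1 to 60 of mt-Nd3 and of Gm28438 read, 5′ to 3′ on the strand of the gene:
mt-Nd3: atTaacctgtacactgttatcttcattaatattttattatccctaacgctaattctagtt
Gm28438: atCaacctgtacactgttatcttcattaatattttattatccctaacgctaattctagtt
Gm29216 matches bases 1054 to 1545 of mt-Co1 with 6 differences, all near its start, so that the first 60 bases of the match are:
mt-Co1: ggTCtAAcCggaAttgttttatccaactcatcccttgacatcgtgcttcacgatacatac
Gm29216: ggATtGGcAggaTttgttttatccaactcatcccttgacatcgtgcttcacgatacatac
A read that lies past these bases has the same letters in both places. How the authors treated reads that match several places is not given in the sources used here.

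The measured levels of the coding genes split into a high and a low set. Per kilobase of gene length, the DMSO level was 2697 ± 615 CPM (SD, n = 3) for mt-Co1, the catalytic subunit of complex IV, 2137 ± 483 for mt-Cytb, the cytochrome b of complex III, and 2054 ± 420 for mt-Nd1, a complex I subunit. The complex I genes mt-Nd2, mt-Nd5, mt-Nd6 and mt-Nd4 followed at 1211 ± 271, 725 ± 184, 721 ± 169 and 577 ± 135 CPM per kilobase. The other 6 coding genes were at 18.7 to 54.7 CPM per kilobase and together held 0.949% of the coding counts. They were mt-Co2 (54.7 ± 11.8), mt-Atp6 (52.1 ± 14.4), mt-Atp8 (49.6 ± 14.0), mt-Co3 (34.7 ± 8.58), mt-Nd3 (29.5 ± 2.37) and mt-Nd4l (18.7 ± 6.15). Of these low genes, 5 are those whose sequence is almost wholly shared with a copy. The sixth, mt-Atp8, had no window of either length in the transcripts searched, and overlaps mt-Atp6 by 43 bases. Nuclear DNA outside annotated transcripts was not searched, so a copy of mt-Atp8 there would not have been seen. The highest coding level exceeded the lowest 144-fold. Among neighbours in the order, mt-Co1 and mt-Cytb, mt-Cytb and mt-Nd1, mt-Nd5 and mt-Nd6, mt-Nd6 and mt-Nd4, mt-Co2 and mt-Atp6, mt-Atp6 and mt-Atp8, and mt-Co3 and mt-Nd3 differed by no more than the larger SD of the pair. The order mt-Co1, mt-Cytb, mt-Nd1, mt-Nd2 nonetheless held in 6 of 6 libraries.

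**Figure D1:**
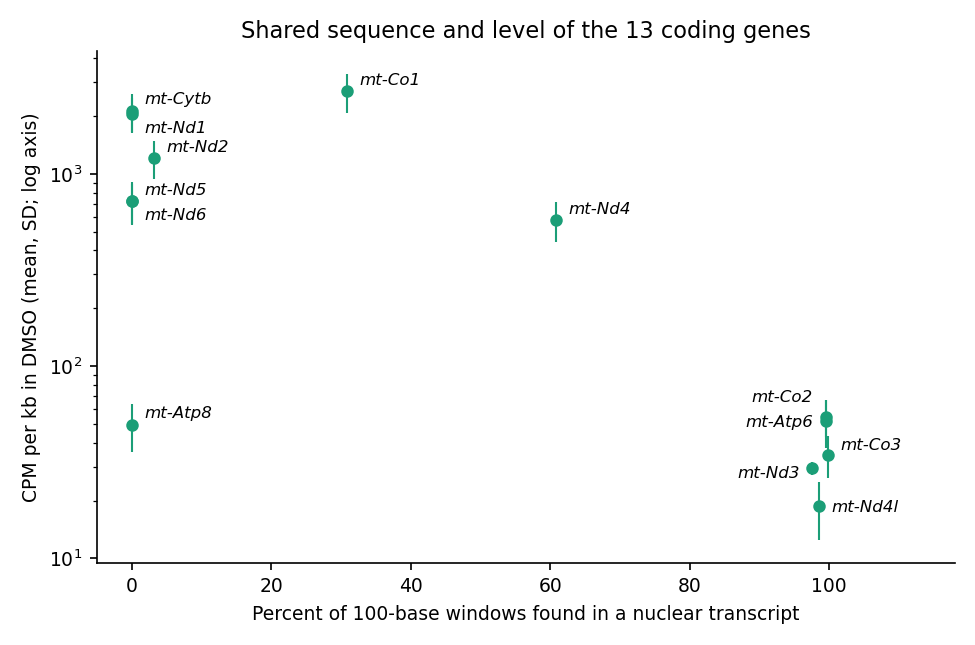
Each point is 1 of the 13 coding genes, with the percent of its 100-base windows found in a nuclear transcript on the x axis and its level in CPM per kilobase in DMSO (mean, bars SD, n = 3, log axis) on the y axis. The 5 genes with 97.6% or more shared windows lie at 18.7 to 54.7 CPM per kilobase. So does mt-Atp8, which shares none with an annotated nuclear transcript, the only nuclear sequence searched.

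Taken as a share of the library, mitochondrial RNA was 1.70%, 1.44% and 1.09% of counts in DMSO 1, 2 and 3, and 1.20%, 1.08% and 1.21% in DS38 1, 2 and 3. DMSO 1 and DMSO 2 lay above all DS38 libraries, and DMSO 3 lay inside the DS38 range. The means were 1.41% ± 0.306 and 1.16% ± 0.0712 (SD, n = 3), a difference of -0.248 percentage points that did not pass an exact two-sided permutation test (p = 0.3, with 0.1 the smallest that 3 against 3 allows). Counting error was far smaller than this spread, as the widest 95% Wilson interval of a library's share was ± 0.00359 points. The highest share exceeded the lowest 1.56-fold among the DMSO libraries and 1.12-fold among the DS38 libraries. Leaving out 1 library at a time gave differences from -0.407 points, without DMSO 3, to -0.102, without DMSO 1. Of all mitochondrial counts, 87.3% were in coding genes, 12.6% in ribosomal RNAs and 0.102% in transfer RNAs.

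**Figure D2:**
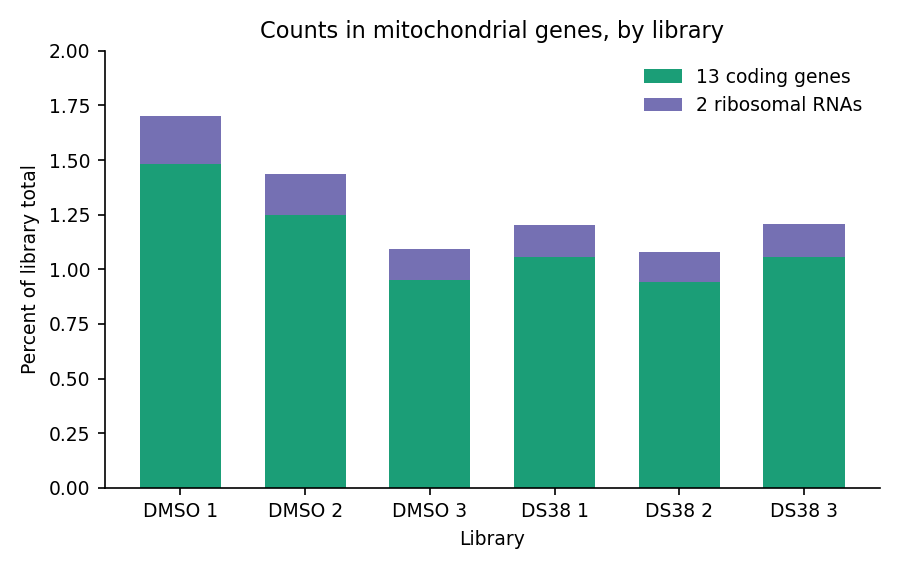
Bars give the percent of each library's counts in mitochondrial coding genes and ribosomal RNAs, stacked, for the 3 DMSO and 3 DS38 libraries. Transfer RNAs are not drawn. The bar of DMSO 3, at 1.09%, stands between those of DS38 2 (1.08%) and DS38 3 (1.21%), and those of DMSO 1 and 2 are taller than all others.

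Across genes, edgeR's quasi-likelihood test called 16 of the 25 tested members lower in DS38 and 0 higher. The 16 were 12 of 13 coding genes, 1 of 2 ribosomal RNAs and 3 of 10 tested transfer RNAs, and the other 12 transfer RNAs had too few counts to be tested. Among all 17679 genes tested, 11.7% were called lower and 12.9% higher. The log2 fold changes of the coding genes had a median of -0.46 (from -0.71 to -0.12), against 0.0036 over all genes. Only 7 of the 25 members had every DS38 library below every DMSO library, an arrangement met in 17.9% of all genes tested. They were mt-Nd2, mt-Nd3, mt-Nd6, mt-Tw, mt-Th, mt-Te and mt-Tp. In all 13 coding genes DMSO 3 was the lowest DMSO library, and DMSO 1 and 2 were above all 3 DS38 libraries. The coefficient of variation of the coding genes had a median of 23.4% among DMSO libraries and 7.94% among DS38 libraries, against 5.98% and 4.29% over all genes.

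The count of calls differed between tools and settings. DESeq2 called 3 members lower (mt-Nd2, mt-Nd3 and mt-Tp), and edgeR with robust dispersion called 4 (mt-Nd3, mt-Th, mt-Te and mt-Tp). Both called 0 higher, and both kept the negative sign of every coding gene. The DESeq2 fit held 32 members, and called 1798 of all 32369 genes in it lower. The fit with robust dispersion held 25 members, and called 2074 of all 17679 genes lower. The calls numbered 10 of 26 members without DMSO 1 and 20 of 25 without DMSO 3. Beside them, 1706 of 18351 and 2474 of 18349 genes were called lower. The median coding fold change was -0.29 without DMSO 1 and -0.64 without DMSO 3.

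**Figure D3:**
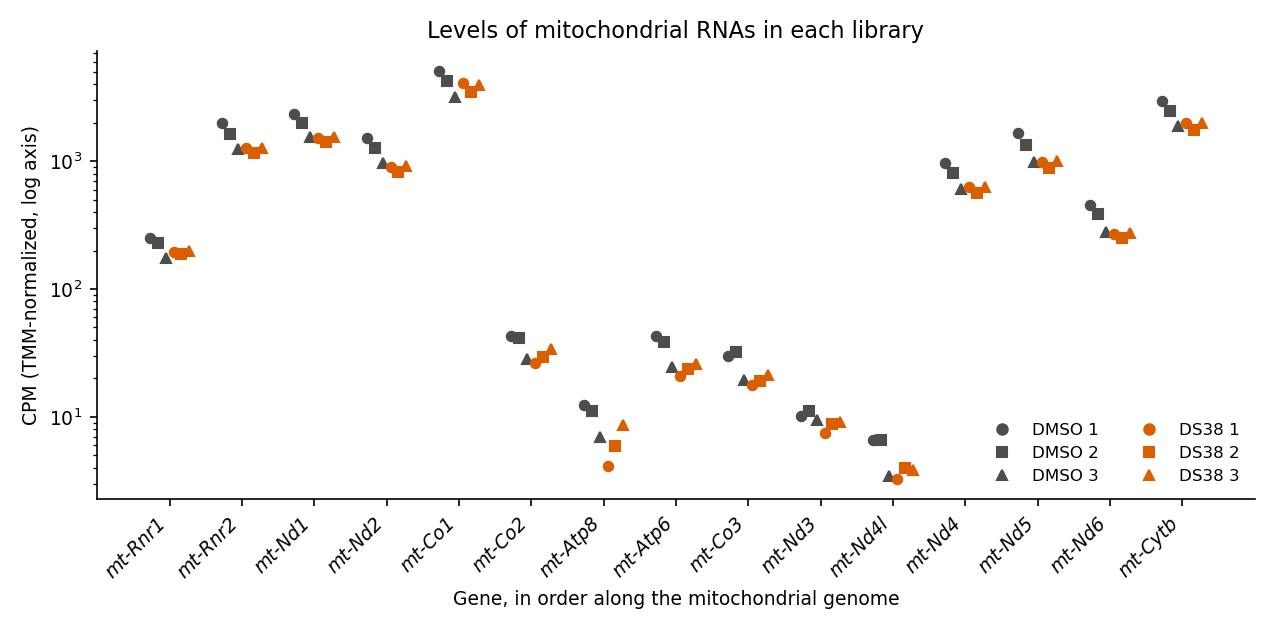
Each symbol is 1 library's TMM-normalized CPM (log axis) for the 2 ribosomal RNAs and 13 coding genes, in their order along the mitochondrial genome. In the abundant genes the DMSO libraries are spread wider than the DS38 libraries, and DMSO 3 is close to or among the DS38 libraries in most genes.

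The 7 complex I genes encode membrane subunits of the enzyme that passes electrons from NADH to ubiquinone and pumps protons. For mt-Nd1, the DMSO libraries gave 2352, 1995 and 1550 CPM and the DS38 libraries 1530, 1422 and 1550. DMSO 3 and DS38 3 were thus nearly level, and the log2 fold change was -0.39 ± 0.081 (SE; edgeR adjusted p = 0.0012). For mt-Nd2, the values were 1535, 1262 and 973 CPM in DMSO and 900.2, 828 and 925 in DS38, with no overlap. Its log2 fold change was -0.51 ± 0.088 (edgeR adjusted p = 2.091e-04; DESeq2 adjusted p = 0.0375). It is the most abundant member whose groups stood apart.

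For mt-Nd4, DMSO gave 976, 805 and 604 CPM and DS38 626, 562 and 624, so that DMSO 3 lay inside the DS38 range. Its log2 fold change was -0.40 ± 0.093 (edgeR adjusted p = 0.00307). For mt-Nd5, DMSO gave 1651, 1332 and 981 CPM and DS38 985, 894 and 1006, again with DMSO 3 inside the DS38 range. Its log2 fold change was -0.46 ± 0.0997 (edgeR adjusted p = 0.00168). The mt-Nd6 gene is the only coding gene on the opposite strand, and overlaps mt-Nd5 by 14 bases, where reads cannot be told apart without strand. Since the strand setting is not given, its counts outside the overlap may also include RNA read from the other strand. For mt-Nd6, DMSO gave 456, 386 and 281 CPM and DS38 268, 249 and 276. Its groups came close but did not overlap, with a log2 fold change of -0.50 ± 0.093 (edgeR adjusted p = 3.83e-04).

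The short genes mt-Nd3 and mt-Nd4l encode further complex I subunits, and nearly all of their sequence is shared with a copy. For mt-Nd3, the libraries gave 10.2, 11.1 and 9.51 CPM in DMSO and 7.52, 8.79 and 9.10 in DS38, with no overlap (log2 fold change -0.28 ± 0.082, edgeR adjusted p = 0.0140). Its spread among DMSO libraries was the narrowest of the coding genes. For mt-Nd4l, they gave 6.61, 6.59 and 3.44 CPM in DMSO and 3.26, 3.95 and 3.86 in DS38, where DMSO 3 was lower than DS38 2 and 3 (-0.61 ± 0.158, edgeR adjusted p = 0.00657).

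In complex III, mt-Cytb is the sole subunit from the mitochondrial genome. Its levels were 2978, 2480 and 1875 CPM in DMSO and 2006, 1759 and 1991 in DS38. DMSO 3 lay between DS38 2 and DS38 3, and the log2 fold change was -0.35 ± 0.091 (edgeR adjusted p = 0.00689).

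Complex IV reduces oxygen to water, and its catalytic core is made of the products of mt-Co1, mt-Co2 and mt-Co3. The mt-Co1 levels were 5083, 4231 and 3186 CPM in DMSO and 4079, 3498 and 3950 in DS38. All DS38 libraries lay between the lowest and the highest DMSO library. With -0.12 ± 0.092 on the log2 scale, mt-Co1 was the 1 coding gene that missed the threshold (edgeR adjusted p = 0.389). It changed sign without DMSO 1 (0.05, edgeR adjusted p = 0.651) and passed without DMSO 3 (-0.28, edgeR adjusted p = 5.314e-05) and with no filter on low counts (-0.11, edgeR adjusted p = 1.915e-04). For mt-Co2, DMSO gave 42.6, 41.6 and 28.1 CPM and DS38 26.3, 29.3 and 33.9 (-0.34 ± 0.0997, edgeR adjusted p = 0.0164). For mt-Co3, DMSO gave 30.1, 32.0 and 19.5 CPM and DS38 17.8, 19.0 and 21.2 (-0.50 ± 0.106, edgeR adjusted p = 0.00127). In both, DMSO 3 lay inside the DS38 range and the other DMSO libraries above it. Nearly all of the sequence of mt-Co2 and mt-Co3 is shared with a copy.

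The ATP synthase genes mt-Atp6 and mt-Atp8 encode parts of its membrane domain, and nearly all of the mt-Atp6 sequence is shared with a copy. For mt-Atp6, DMSO gave 43.2, 38.7 and 24.5 CPM and DS38 20.7, 23.7 and 25.9 (-0.61 ± 0.117, edgeR adjusted p = 5.63e-04). For mt-Atp8, DMSO gave 12.4, 11.0 and 6.93 CPM and DS38 4.12, 5.87 and 8.68 (-0.71 ± 0.185, edgeR adjusted p = 0.00703). The mt-Atp8 value was the furthest from 0 among the coding genes, and also had the largest SE.

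**Figure D4:**
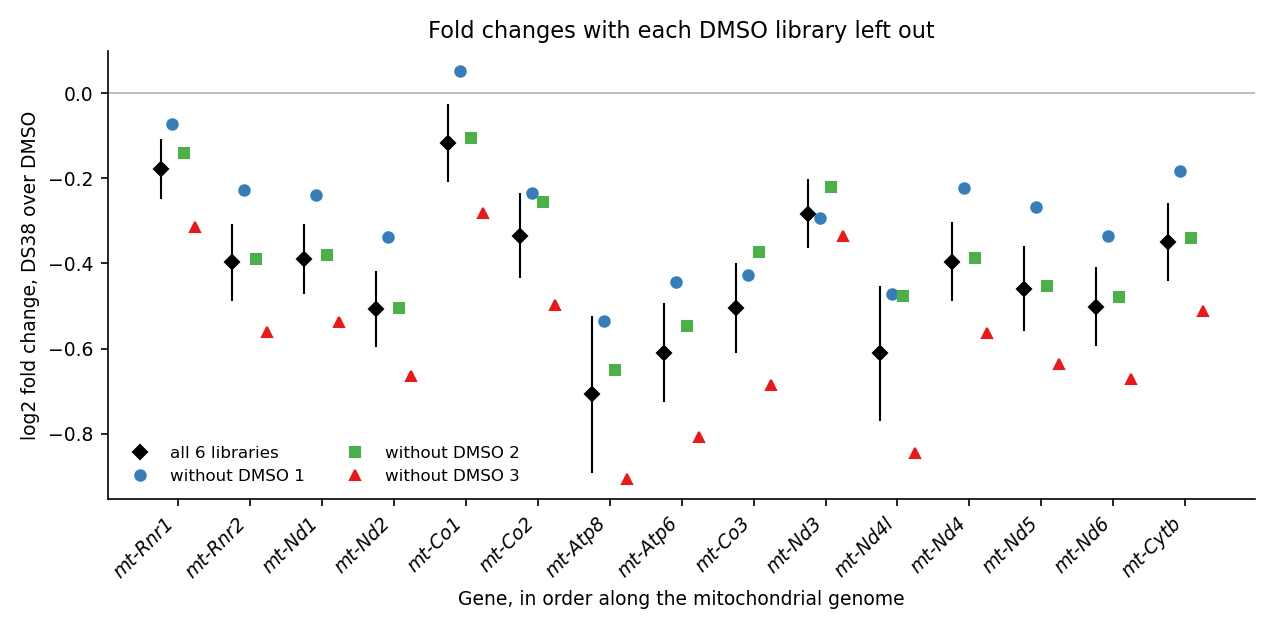
Black diamonds give the edgeR log2 fold change of DS38 over DMSO with all 6 libraries (bars SE), and coloured symbols the same with 1 DMSO library left out, for the ribosomal RNAs and coding genes in genome order. Every gene is furthest below 0 without DMSO 3, and mt-Co1 lies at 0.05 without DMSO 1.

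The nuclear copies were low beside the abundant members and close to the low ones. Summed over libraries, mt-Co2 had 11947 counts and its copy Gm28661 9566, mt-Atp6 10232 and Gm10925 12660, and mt-Co3 8146 and Gm28437 5956. The pairs mt-Nd3 and Gm28438 had 3314 and 4000 counts, and mt-Nd4l and Gm10222 1604 and 1404. By contrast mt-Nd4 had 247266 counts against 4616 in Gm28439, and mt-Co1 1451329 against 4825 in Gm29216. Of the 7 copies, 5 were called lower in DS38 with log2 fold changes of -0.69 to -0.30, beside 11.7% of all genes tested. These 5 match their genes at every aligned base. A read inside them cannot be assigned by sequence to the copy or to the gene, so the values below are not separate measurements. Gm28439 was at -0.69 beside -0.40 for mt-Nd4, Gm28437 at -0.37 beside -0.50 for mt-Co3, and Gm10925 at -0.59 beside -0.61 for mt-Atp6, and these differences were not tested. The other 2 were Gm28438 (-0.21, edgeR adjusted p = 0.142) and Gm29216 (-0.18, edgeR adjusted p = 0.186), and robust dispersion called 0 of the 7. When the counts of each copy were added to its gene, an alternative chosen after seeing the data, the same 16 members were called lower. The fold change was then -0.32 for mt-Co2, -0.60 for mt-Atp6, -0.45 for mt-Co3, -0.24 for mt-Nd3 and -0.58 for mt-Nd4l.

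The 2 ribosomal RNAs form the core of the mitochondrial ribosome, mt-Rnr1 in the small and mt-Rnr2 in the large subunit. For mt-Rnr2, DMSO gave 1993, 1650 and 1249 CPM and DS38 1278, 1163 and 1273 (log2 fold change -0.40 ± 0.090, edgeR adjusted p = 0.00240). For mt-Rnr1, DMSO gave 250.4, 231 and 176 CPM and DS38 197, 188 and 197 (-0.18 ± 0.070, edgeR adjusted p = 0.0686). Without DMSO 3, mt-Rnr1 passed at -0.32 (edgeR adjusted p = 4.043e-09), and it also passed with no filter on low counts. DMSO 3 was below every DS38 library in mt-Rnr1 and inside their range in mt-Rnr2. Although mt-Rnr1 lies ahead of mt-Rnr2 on the same strand, its level per kilobase in DMSO was 229.6 ± 40.4 CPM against 1031 ± 235. The library kit selects poly(A) RNA, so levels of RNAs with short or no tails are not levels in the cell. Within each library, mt-Rnr1 amounted to 0.126, 0.140 and 0.141 of mt-Rnr2 in DMSO and to 0.154, 0.161 and 0.155 in DS38. This ratio was higher in every DS38 library than in every DMSO library, while that of mt-Rnr2 to mt-Nd1 overlapped between groups.

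Transfer RNAs are short, folded and modified, and held 4698 counts in all 6 libraries. The 8 encoded on the opposite strand to most genes took 3136 of these (66.8%). Without the strand setting, these counts, those of mt-Tp and mt-Te among them, cannot be assigned to a strand. In 5 (mt-Tf, mt-Ts1, mt-Td, mt-Tk and mt-Tg) no count was seen, which allows up to 0.00831 CPM over all libraries and covers counting error only. The other 7 that could not be tested were mt-Tt (46 counts), mt-Tm (23), mt-Tq (20), mt-Ta (19), mt-Ti (16), mt-Tv (2) and mt-Tr (1). The highest sums were those of mt-Tp (1889), mt-Tl1 (791) and mt-Tn (501). The 3 called lower are shown here in full, 5′ to 3′, because they are the transfer RNAs on which the count rests, with the anticodon in capitals:
mt-Tp: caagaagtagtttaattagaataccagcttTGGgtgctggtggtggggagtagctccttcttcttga
mt-Te: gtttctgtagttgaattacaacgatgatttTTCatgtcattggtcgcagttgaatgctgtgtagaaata
mt-Th: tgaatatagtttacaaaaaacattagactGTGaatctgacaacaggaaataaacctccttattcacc
For mt-Tp, the proline transfer RNA, DMSO gave 6.96, 6.36 and 6.52 CPM and DS38 4.85, 4.21 and 4.06. Here DMSO 3 stood with the other DMSO libraries, and the log2 fold change was -0.60 ± 0.095 (edgeR adjusted p = 8.079e-05). It passed with DESeq2 (adjusted p = 1.6e-05) and with robust dispersion.

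For mt-Te, the glutamate transfer RNA, DMSO gave 0.901, 0.437 and 0.491 CPM and DS38 0.313, 0.196 and 0.270, on 144 counts in all (-1.22 ± 0.344, edgeR adjusted p = 0.0119). For mt-Th, the histidine transfer RNA, DMSO gave 1.08, 1.19 and 0.801 CPM and DS38 0.777, 0.538 and 0.505, on 279 counts (-0.76 ± 0.245, edgeR adjusted p = 0.0259). Neither had overlapping groups, though DMSO 3 and DS38 1 were close in mt-Th. With 1 library left out, the transfer RNAs called lower numbered from 1 (without DMSO 1 or without DS38 2) to 5 (without DMSO 3). With DESeq2, 1 was called lower. The 7 tested transfer RNAs that did not pass had log2 fold changes of -0.70 to -0.03. Among them were mt-Tl1 (-0.50, edgeR adjusted p = 0.0545), mt-Tn (-0.38, edgeR adjusted p = 0.163), mt-Tc (-0.38, edgeR adjusted p = 0.131) and mt-Tw (-0.58, edgeR adjusted p = 0.150). The rest were mt-Ts2 (-0.70, edgeR adjusted p = 0.335), mt-Tl2 (-0.21, edgeR adjusted p = 0.742) and mt-Ty (-0.03, edgeR adjusted p = 0.973).

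Within the mitochondrial coding counts, the shares of the 7 abundant genes were closer to each other among libraries of a group than their levels were. This did not hold for all of the low genes, such as mt-Nd3. As a share of these counts, mt-Co1 was 33.5%, 33.5% and 33.4% in DMSO and 38.9%, 37.6% and 37.9% in DS38. Every DS38 library was thus above every DMSO library, by 4.69 percentage points on average (33.5% ± 0.0579 and 38.1% ± 0.705, SD, n = 3). The widest 95% Wilson interval of this share was ± 0.152 points. DMSO 3, which was like DS38 in the amount of mitochondrial RNA, was like the other DMSO libraries in this share. The exact two-sided permutation p was 0.1, the smallest that 3 against 3 allows, and 0.163 adjusted over the 13 coding genes, so the design cannot pass 0.05. Leaving out 1 library at a time gave 4.29 to 4.96 points. With the coding total as library size in edgeR, an alternative chosen after seeing the data, mt-Co1 was at 0.19 ± 0.183 on the log2 scale (edgeR adjusted p = 0.553) and none of the 13 passed.

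Since shares add up to a whole, a higher share of mt-Co1 lowers the others. The shares of mt-Nd1, mt-Nd2, mt-Atp6, mt-Nd4, mt-Nd5, mt-Nd6 and mt-Cytb were lower in every DS38 library than in every DMSO library, by up to 1.31 points (mt-Nd2), and the other 5 overlapped. The mt-Nd2 share was 10.1%, 9.99% and 10.2% in DMSO and 8.59%, 8.90% and 8.87% in DS38. With mt-Co1 left out of the total, 9 of the 12 remaining shares overlapped. The shares of mt-Nd2 and mt-Nd6 were still below, and that of mt-Cytb turned to above, with 29.5% in each DMSO library and 31.4%, 30.3% and 30.7% in DS38. For mt-Nd2 the mean of these shares was 15.2% in DMSO and 14.2% in DS38.

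**Figure D5:**
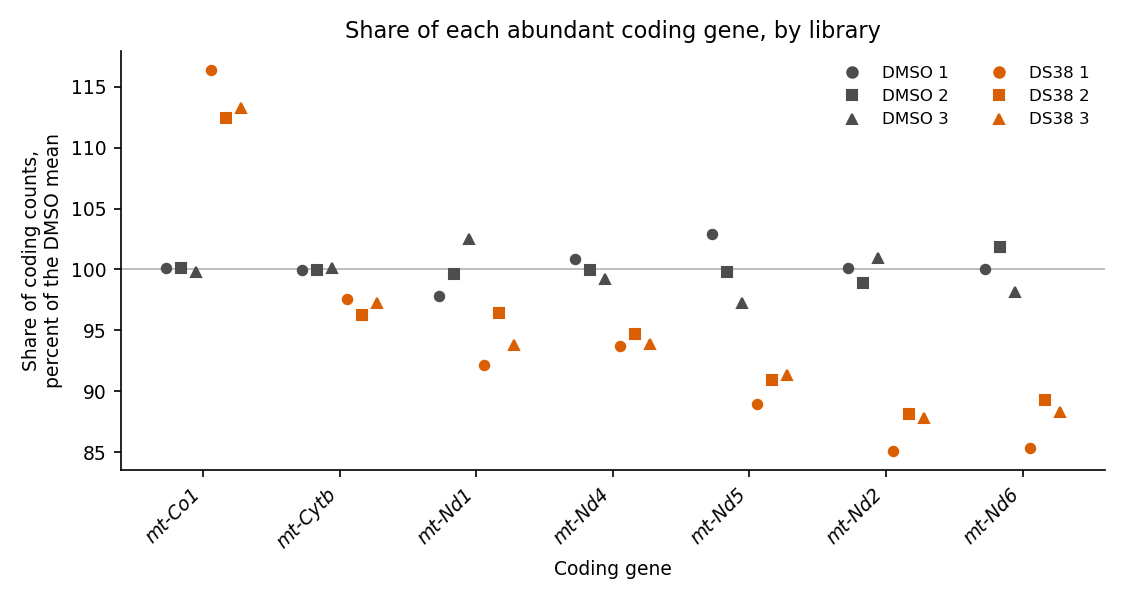
Each symbol is 1 library's share of the mitochondrial coding counts for an abundant coding gene, as a percent of that gene's mean share in DMSO. The DS38 symbols of mt-Co1 lie above all DMSO symbols (38.1% against 33.5% of the coding counts on average), and those of the other 6 abundant genes lie below all DMSO symbols.

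Ratios between pairs of genes do not depend on the coding total, and were chosen after the shares were seen. Each is the quotient of the shares of its genes, so the ratios of mt-Co1 restate those shares. The ratio of mt-Co1 to mt-Cytb counts was 1.71, 1.71 and 1.70 in DMSO and 2.03, 1.99 and 1.98 in DS38 (1.70 ± 0.00419 and 2.00 ± 0.0271, SD, n = 3). The ratio of mt-Co1 to mt-Nd1 was 2.16, 2.12 and 2.06 in DMSO and 2.67, 2.46 and 2.55 in DS38. That of mt-Co1 to mt-Nd2 was 3.31, 3.35 and 3.27 in DMSO and 4.53, 4.22 and 4.27 in DS38. All of these were higher in every DS38 library, which the shares above already required. The ratio of mt-Nd2 to mt-Nd1 was lower, with 0.652, 0.633 and 0.628 in DMSO and 0.588, 0.582 and 0.597 in DS38. The ratio of mt-Nd6 to mt-Cytb, which sit on opposite strands, was also lower, with 0.153, 0.156 and 0.150 in DMSO and 0.134, 0.142 and 0.139 in DS38. The strand limit on the mt-Nd6 counts applies to this ratio. The ratios of mt-Nd6 to mt-Nd5 and of mt-Cytb to mt-Nd1 overlapped.

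Among nuclear genes that maintain, transcribe or process the mitochondrial genome and its RNA, most did not pass. Of 22 tested genes of mitochondrial DNA maintenance and transcription, 2 rose and 2 fell (median log2 fold change 0.027), a count near the background of 12.9% higher and 11.7% lower over all genes. Mterf1a, a mitochondrial termination factor, rose from 5.91 to 7.82 CPM (0.40 ± 0.082), and Mgme1, a nuclease of mitochondrial DNA, by 0.12. Dna2 and Twnk, the latter the helicase of mitochondrial replication, fell by 0.21 and 0.10 on the log2 scale. Of 37 genes of mitochondrial RNA processing, modification and decay, 8 rose and 1 fell (median 0.043), beside the same 12.9% higher and 11.7% lower. Mettl15, a methyltransferase for mt-Rnr1, rose from 6.63 to 9.48 CPM (0.52 ± 0.080). Nsun3, which modifies a mitochondrial transfer RNA, and Ptcd3, a protein of the small mitochondrial ribosomal subunit, rose by 0.21 and 0.13. Pnpt1, a component of the RNA-degrading complex in the organelle, fell from 106 to 95.7 CPM (-0.15 ± 0.030). Of 12 tested regulators of mitochondrial biogenesis, 1 rose (Gabpb1, 0.15) and 1 fell (Gabpb2, -0.14). Of 15 tested genes on the mitophagy list, 2 rose (Pink1, 0.15, and Bnip3, 0.20) and 1 fell (Usp15, -0.11). That list also held Atpaf1, an assembly factor of ATP synthase, which did not pass (-0.03).

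The nuclear partners of the coding genes had small fold changes in both directions. Of 78 tested nuclear subunits of complexes I, III and IV and ATP synthase, 7 rose and 7 fell, beside 12.9% and 11.7% of all genes, with a median log2 fold change of 0.012 beside the -0.46 of the 13 mitochondrial subunits. In complex I, 3 of 37 rose and 3 fell, among them Ndufa7 (0.19 ± 0.041) and Ndufa3 (-0.17). In complex III, 1 of 9 rose (Uqcrc2, 0.13) and 2 fell, among them Uqcr10 (-0.19). In complex IV, 3 of 14 rose, among them Cox8a (0.12) and Cox6a2 (1.26 ± 0.321, from 0.282 to 0.685 CPM), and 2 fell, among them Cox6c (-0.11). None of the 18 ATP synthase subunits passed. In complex II, which has no mitochondrially encoded subunit, 1 of 4 rose (Sdhc, 0.13 ± 0.030). With library size alone as the scaling, 16 nuclear subunits were called higher and 4 lower. In that fit 3289 of all 17679 genes were called higher and 1543 lower.

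Other RNAs that bear on the makeup of the libraries were looked at beside these values. Of 7 tested nuclear-retained RNAs, 2 rose (Neat1, 0.30, and Firre, 0.29) and 2 fell (Kcnq1ot1, -0.86, antisense to Kcnq1 and so not certain without strand, and Miat, -0.35). Over all genes tested, 12.9% were called higher and 11.7% lower. Of the listed RNAs that lack a poly(A) tail, 1 could be tested (Scarna2, -0.05) and did not pass. ENSMUSG00000119584, an abundant RNA with no symbol here, was at 2819, 7247 and 3610 CPM in DMSO and 2326, 2372 and 1937 in DS38 (-1.04 ± 0.188, edgeR adjusted p = 3.012e-04). It too was spread among DMSO libraries, but was highest in DMSO 2, not in DMSO 1. With it left out of the totals, the difference in mitochondrial share was -0.251 points. The part of these RNAs in the mitochondrial values was not tested.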

How the data were processed

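RNA from 3 DMSO and 3 DS38 samples was extracted with a column kit and made into libraries with an mRNA kit, per the labels' protocols. The deposited table holds whole read counts by gene, as the authors made them, and each gene's length in bases. The submitters' processing notes name the aligner STAR 2.7.9a, the counter featureCounts, the package Subread 2.0.3 that contains it, edgeR, and R 4.1.0, and the builds GRCm39 and GRCh38.p13, with neither role nor order. For the strand setting and for reads that match several places, the rule is not given in the sources used here.

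The counts were tested with edgeR 4.0.16 (R 4.3.3): filterByExpr (minimum count 10, minimum total count 15), TMM scaling, and the two-sided quasi-likelihood test of group, with Benjamini-Hochberg adjustment over 17679 genes and a threshold of 0.05. The script was tested on simulated data in which every gene had the same dispersion. That test cannot speak to calls in genes spread as the mitochondrial ones were among DMSO libraries. CPM are TMM-normalized, and a log2 fold change is that of DS38 relative to DMSO. Shares and ratios were taken from raw counts within each library, and shares were compared by exact permutation. Intervals are 95% Wilson intervals and cover counting error only. Within-group library pairs differed beyond sampling noise (chi-square over degrees of freedom 2.94 to 9.65). Against the DS38 libraries, this value was 10.79 to 13.13 for DMSO 3 and 25.02 to 29.92 for DMSO 1 and 2. It covers all genes tested, the mitochondrial ones among them.

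Gene symbols were matched for 52083 identifiers. Sequences came from GENCODE M21 transcripts (GRCm38). All 37 mitochondrial gene lengths equal those in the deposited table, and since the builds differ no coordinates are given. Windows of 50 and 100 bases were searched in all other transcripts of that set, on both strands.

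The members and gene lists were chosen with earlier results of these data known. Named were all coding genes, ribosomal RNAs and tested transfer RNAs, up to 3 genes of smallest adjusted p in each direction from the other lists (not all are printed), all copies with a count, the 2 most abundant markers of a cell type, and the 5 genes most like the coding genes.

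Alternatives were DESeq2 1.42.0, limma-voom (limma 3.58.1), RLE scaling, library size alone, scaling without mitochondrial rows, no filter, a stricter filter (5 CPM in 3 libraries), robust dispersion, the replicate number as a block, thinning to the smallest total, and leaving out each library. Adding the nuclear copies, leaving ENSMUSG00000119584 or mt-Co1 out of a total, and the coding total as library size were chosen after seeing the data.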

Additional observations from a re-analysis of the deposited data

How the results depend on the processing

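Over the settings that kept all 6 libraries, the median log2 fold change of the coding genes was -0.47 to -0.42, and it was -0.64 to -0.29 with 1 library left out. No setting called a member higher. The 16 members called lower became 3 with DESeq2 and 4 with robust dispersion, and 10 to 20 with 1 library left out. The 12 coding genes called lower became 2, 1 and 8 to 13 in these settings. Over all genes, DESeq2 called 1798 of 32369 lower and robust dispersion 2074 of 17679, and 1549 to 2474 were lower with 1 library left out. With the replicate number as a block, 17 members were lower, mt-Rnr1 among them (-0.16, edgeR adjusted p = 0.0493), and the difference in mitochondrial share stayed at -0.248 points (exact permutation p = 0.5), but the numbers did not pair the samples: same-numbered deviations correlated at 0.0488, 0.00576 and -0.0620, and not every sample correlated best with its own number. The log2 fold change turned its sign for mt-Ty (0.0044 with library size alone, 0.0098 with the block, -0.29 to 0.32 with 1 library left out), mt-Co1 (-0.28 to 0.052, the latter without DMSO 1), mt-Ts2 (-1.61 to 0.084, the latter without DMSO 2) and mt-Tl2 (0.070 thinned, -0.57 to 0.17, the latter without DMSO 1). With mt-Co1 left out of the coding total, the differences in share were 0.307 points for mt-Nd1, 0.0269 for mt-Co2, 0.00887 for mt-Nd3, 0.121 for mt-Nd4 and 1.30 for mt-Cytb. With 1 library left out, the difference in share was -0.0185 to 0.0188 for mt-Co2 and -0.00946 to 0.00695 for mt-Nd3. Library size alone called 3289 genes higher and 1543 lower, against 2272 and 2068. For the nuclear lists, in which few genes pass, mitochondrial DNA maintenance had 1 lower with library size alone and with no filter (1 to 2 with 1 library left out) and 1 higher with DESeq2, RLE and the block, 5 with library size alone (1 to 2). RNA processing had 2 lower with the stricter filter and thinned (1 to 2) and 6 to 9 higher with 1 library left out. Biogenesis had 2 lower with DESeq2 and 3 with the stricter filter (1 to 2, and 1 to 2 higher). Mitophagy had 0 lower with library size alone (0 to 1), and 0 higher with DESeq2, 4 with library size alone and 1 thinned (0 to 3). Complex II had 2 higher with library size alone (1 to 2). The copies had 0 lower with robust dispersion and, having been merged, with copies added (3 to 7). Nuclear-retained RNAs had 1 lower with DESeq2 and with robust dispersion, and 1 and 0 higher (0 to 2). Nuclear subunits had 4 lower (3 to 10) and 16 higher (3 to 18) with library size alone, and 3 higher with DESeq2. The cause of these changes was not tested.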

Other observations

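Among 10544 other tested genes of at least 5 CPM on average, 5 had log2 CPM closest to the mean log2 CPM of the 13 mitochondrial coding genes over the 6 libraries: Sowahc (Pearson r = 0.9985), Zfp369 (0.9982), Zfp758 (0.9952), Adgrl3 (0.9933) and Lcor (0.9926). Their log2 fold changes were -0.10, -0.12, -0.11, -0.18 and -0.19. These are the highest of many correlations over 6 points that share their libraries and scaling, and are given as a description.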
